A study of Mus musculus with 16 samples.

Results

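The genes of the tight junction were followed in the ileum of mice with and without Bcl6 in the liver. They were taken by symbol from a table of 24940 genes, and all 10 were found at a single position: the claudins Cldn2, Cldn3, Cldn4, Cldn7, Cldn8, Cldn15 and Cldn23, Ocln (occludin), Tjp1 (ZO-1) and F11r (JAM-A). Poly(A) RNA was sequenced from 1 cm of ileum next to the cecum of C57BL/6 mice of both sexes, with 4 animals for each combination of sex and genotype. The qPCR methods of the study describe a longer piece of terminal ileum. All animals carried loxP-flanked Bcl6 (Bcl6fl/fl, the WT controls), and LKO animals (Bcl6LKO) also carried Albumin-Cre, a transgene that is active in hepatocytes, so Bcl6 was not targeted in the ileum itself. The age of the animals is not given in the sources used here. The study used the ileum to ask about feedback between intestine and liver in bile acid control.

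Tight junctions close the space between neighbouring epithelial cells near their luminal side. Claudins form the strands and set which ions pass: claudin-2 and claudin-15 make pores for small cations, while claudin-3, claudin-4 and claudin-8 tighten the barrier. Occludin and JAM-A are further membrane proteins of the junction, and ZO-1 is the scaffold below the membrane that ties the strands to actin.

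Libraries held between 15.7 and 20.5 M gene counts (M, mega), apart from female LKO replicate 1 with 60.3 M. Values are CPM, the counts per M of the library after scaling by trimmed mean of M-values. The 10 genes had counts in every library and were tested in every comparison, and together they took between 0.276% and 0.329% of a library's counts. Xist was between 368.7 and 533.2 CPM in females and at most 0.281 CPM in males, so the libraries matched their labelled sex. Ileal Bcl6, which Albumin-Cre is not directed at, lay between 9.24 and 26.1 CPM and checks no genotype label. All 10 epithelial markers were seen in every library. The B cell markers summed to over 100 CPM in 3 libraries (male WT replicate 2, female LKO replicates 2 and 3), and Car1, a carbonic anhydrase of the large intestine, ranged from 0 to 1155 CPM and passed 100 CPM in 5 libraries (male WT replicates 3 and 4, male LKO replicate 2, female WT replicates 1 and 4). Hoxb13, a defining gene of the distal large intestine, was at 0 in 15 of the 16 libraries. Aqp8, also on the large intestine list, was at 0 in 8 libraries. It was highest in male LKO replicate 2 (24.2 CPM) and female WT replicate 1 (21.5 CPM), the libraries with the most Car1 (1155 and 916 CPM). The large intestine markers summed to between 316 and 1911 CPM.

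The genes lie on 8 chromosomes (mm10 coordinates of the deposited table). Cldn2 lies on chrX:139800808-139811388, plus strand. Cldn4 (chr5:134945124-134946934, minus strand) and Cldn3 (chr5:134986214-134987476, plus strand) are neighbours 39279 bases apart, and Cldn15 (chr5:136967869-136975845, plus strand) is on the same chromosome. Cldn7 is at chr11:69965421-69967886, Ocln at chr13:100496505-100552718, Tjp1 at chr7:65296165-65371244 and F11r at chr1:171437561-171464593. Cldn8 is at chr16:88560826-88563183 and Cldn23 at chr8:35824709-35826559. Of these intervals, that of Cldn3 overlapped another gene on the opposite strand, Wbscr25, which had between 1 and 11 counts per library.

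The promoters of 3 claudins are shown. Cldn2 and Cldn15 are the pore-forming pair that edgeR called between the sexes over both genotypes, though not within either genotype. Cldn4 is the most variable of the well-expressed claudins and was not called in any comparison. Cldn7, also called between the sexes, is not shown. RefSeq promoter sequences (GRCm38.p6) were found for 8 of the 10 genes, not for Cldn8 and Cldn23. The windows run 5′ to 3′ toward the gene and end at the base before the transcript start, except that of Cldn15, which stops before an annotated exon. Capitals mark matches on either strand to 4 motifs, none of which overlaps another. The TATA box was searched as TATAAA. The GC box was searched as GGGCGG. The AP-1 site was searched as TGAGTCA. The E box was searched as CACCTG. The Cldn2 window is chrX:139800558-139800807, that of Cldn4 is chr5:134946935-134947184 read on the minus strand, and that of Cldn15 is chr5:136967619-136967843.
Cldn2: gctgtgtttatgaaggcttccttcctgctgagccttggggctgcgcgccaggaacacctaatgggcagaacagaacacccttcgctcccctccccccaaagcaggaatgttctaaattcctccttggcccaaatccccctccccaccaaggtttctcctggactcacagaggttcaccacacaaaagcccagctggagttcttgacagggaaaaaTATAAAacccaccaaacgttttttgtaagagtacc
Cldn4: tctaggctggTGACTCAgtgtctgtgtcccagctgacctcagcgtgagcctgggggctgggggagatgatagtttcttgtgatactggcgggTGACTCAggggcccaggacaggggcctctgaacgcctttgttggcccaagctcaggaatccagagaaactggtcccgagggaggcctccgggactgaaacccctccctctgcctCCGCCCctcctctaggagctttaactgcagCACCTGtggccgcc
Cldn15: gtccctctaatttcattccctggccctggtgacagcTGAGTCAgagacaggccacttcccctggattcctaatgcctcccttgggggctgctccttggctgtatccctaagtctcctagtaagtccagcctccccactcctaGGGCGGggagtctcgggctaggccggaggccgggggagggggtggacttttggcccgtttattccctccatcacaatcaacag
The TATAAA of Cldn2 begins 35 bases before the start, and no other of the 8 windows holds one, against 12.4% of all 32851 RefSeq promoter windows of 250 bases. The pair of AP-1 matches in Cldn4 begins 240 and 158 bases before its start and that of Cldn15 214 bases before. With F11r, 3 of the 8 windows hold this motif, against 4.46% of all promoters. The GC box was in 7 of the 8 windows, against 32.7% of all promoters, and the E box in 3 (Cldn4, Cldn7 and F11r), against 17.2%. A match is a letter pattern and was not tested for binding.

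Cldn7 was the most abundant of the 10 transcripts on the per-length scale, in CPM per kilobase of transcript. It averaged 728 ± 40.8 CPM per kilobase (SD, n = 16), with Cldn3 next at 328 ± 31.4. A middle tier followed in which neighbours overlapped over the 16 libraries: Cldn15 at 168 ± 15.4, Cldn2 at 148 ± 21.7, Cldn4 at 132 ± 26.5 and F11r at 128 ± 9.74 CPM per kilobase. Below them, with no overlap between neighbours, stood Ocln at 38.9 ± 2.58, Cldn23 at 27.8 ± 4.11, Tjp1 at 16.5 ± 1.92 and Cldn8 at 3.70 ± 1.23. Cldn7 made up between 45.03% and 51.2% of the 7 claudins' summed level per length in each library. The share of Cldn3 was between 17.8% and 24.3%, that of Cldn15 between 9.64% and 12.2%, that of Cldn2 between 7.28% and 11.7% and that of Cldn4 between 6.76% and 11.8%. Cldn8, known from distal colon and kidney, made up at most 0.401%.

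**Figure D1:**
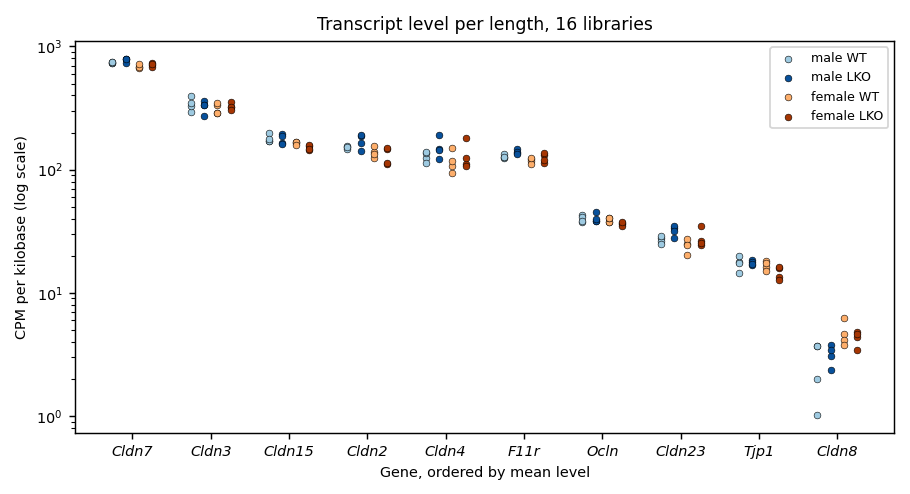
Level of each gene in CPM per kilobase (log axis) in each of the 16 libraries, coloured by group and ordered by the mean. Cldn7 and Cldn3 lie apart from the rest, Cldn15, Cldn2, Cldn4 and F11r form a tier with overlapping neighbours, and Cldn8 lies lowest with a mean of 3.70.

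The ratio of pore-forming claudins (Cldn2 plus Cldn15) to sealing claudins (Cldn3, Cldn4 and Cldn8), per length, was 0.703 ± 0.0441 in male WT, 0.732 ± 0.105 in male LKO, 0.696 ± 0.0719 in female WT and 0.618 ± 0.0843 in female LKO (SD, n = 4). These ranges overlapped, from 0.495 to 0.682 in female LKO against 0.578 to 0.810 in male LKO, and the ratio was given no test. Cldn2 stood below Cldn15 in most libraries, with a ratio of the 2 levels per length between 0.713 and 1.03.

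Animals of one group differed little in Cldn7 and much in Cldn8. The SD of log2 CPM within groups was 0.047 for Cldn7, smaller than that of all but 0.583% of the 15598 genes tested. It was 0.08 for F11r and for Ocln and 0.09 for Cldn15, then 0.15 for Tjp1 and Cldn3, and 0.17 for Cldn2 and Cldn23. Cldn4 had a spread of 0.27, and Cldn8 one of 0.50, with 93.7% of genes less variable. Cldn8 also had the fewest counts, between 47 and 704 per library, and Cldn7 the most, between 15041 and 58841. The shares of genes with less spread compare genes of every level.

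**Figure D2:**
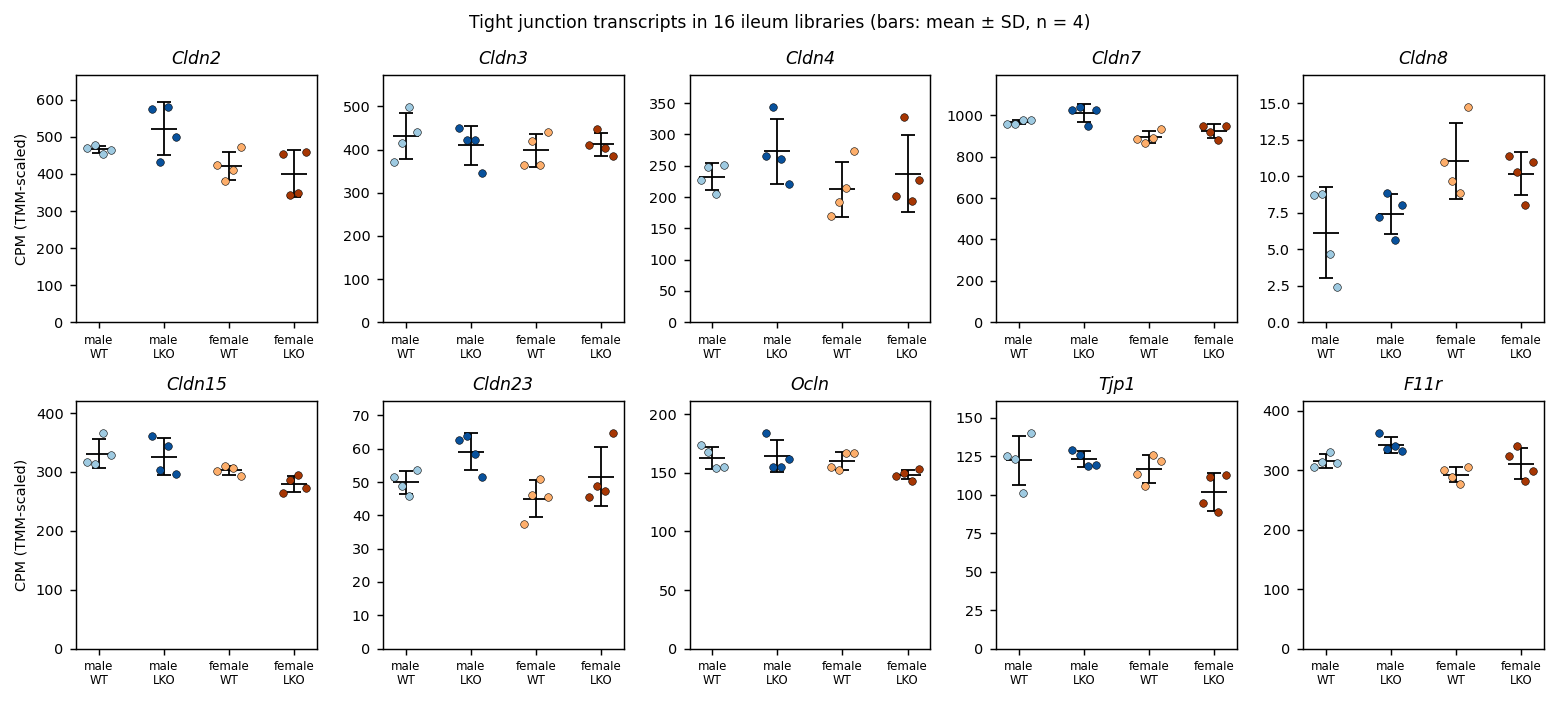
CPM of each gene (linear axis from 0) in the 4 libraries of each group, with the mean and SD as bars. WT and LKO points overlap for every gene except F11r in males, and female means lie below male means of the same genotype for most genes and above them for Cldn8.

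In males, none of the 10 genes passed the test between LKO and WT. The count was 0 of 10 at an adjusted p below 0.05 (edgeR quasi-likelihood test with Benjamini-Hochberg adjustment over 15169 genes), in a comparison that called 8 genes, 0.0527% of those tested. At an unadjusted p below 0.05 there was 1 of 10, Cldn23, where the share of all genes was 5.29%. Cldn23 stood at 51.65, 48.7, 45.9 and 53.75 CPM in male WT and at 62.5, 63.9, 58.3 and 51.65 CPM in male LKO. Here 3 LKO animals were above every WT animal and the other was inside the WT range, and the log2 difference was 0.25 (SE 0.08, edgeR adjusted p = 0.625). F11r, which encodes the adhesion molecule JAM-A, was the single gene whose groups did not overlap. It was at 305, 314, 331 and 311.5 CPM in male WT and at 362, 336, 341 and 332 CPM in male LKO. Every LKO animal lay above every WT animal by a narrow margin, the log2 difference was 0.13 (SE 0.061, edgeR adjusted p = 0.965), and 2.97% of all genes tested had groups without overlap. Cldn2 and Cldn4 had log2 differences of 0.17 (SE 0.085) and 0.24 (SE 0.12), and Cldn15, Ocln, Tjp1 and Cldn3 lay between -0.07 and 0.02. For the 9 genes other than Cldn8, the 95% intervals of the difference ran at their widest from a change in LKO of -17.2% to one of 40.6%. For Cldn8 the interval ran from -33% to 121.7%. DESeq2 also called 0 of the 10 genes and 0.336% of all genes. Markers of Paneth cells, the crypt cells that secrete antimicrobial peptides, also differed between these groups. The 8 markers, none at 0, summed to between 12687 and 14856 CPM in male WT and between 18219 and 22667 CPM in male LKO, with 3 of 8 called higher, 0 lower and 7 of 8 at an unadjusted p below 0.05. Over all 16 libraries their sum had r = -0.111 with F11r and 0.21 with Cldn23 (rho = -0.215 and 0.0118, permutation adjusted p = 0.7805 and 0.622 for r and 0.551 and 0.969 for rho). Within males r was 0.779 for F11r and 0.837 for Cldn23, where genotype and this sum cannot be told apart, and within females it was -0.0602 and 0.668. What part the Paneth markers have in these values was not tested.

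In females the count was again 0 of 10, where edgeR called 6 of 15298 genes (0.0392%), and no gene had groups without overlap, against 6.31% of all genes. At an unadjusted p below 0.05 there was 1 of 10, Tjp1, and 11.7% of all genes. Tjp1, the ZO-1 scaffold, was at 113.5, 106, 126 and 122 CPM in female WT and at 94.4, 111, 88.55 and 113 CPM in female LKO. A pair of LKO animals lay below all WT animals and the other pair within their range, and the log2 difference was -0.20 (SE 0.088, edgeR adjusted p = 0.405). Occludin had 160.3 ± 7.58 CPM in female WT and 148 ± 3.99 in female LKO (SD, n = 4), a log2 difference of -0.11 (SE 0.057, edgeR adjusted p = 0.469). Cldn15 averaged 303 ± 7.58 and 279.6 ± 13.7 CPM, with a log2 difference of -0.11 (SE 0.058, edgeR adjusted p = 0.461). The 95% intervals of the 9 genes other than Cldn8 ran from a change in LKO of -23.7% to one of 56.7%, the widest of them that of Cldn4. For Cldn8 the interval ran from -27.55% to 18.3%, narrower than that of Cldn4. By DESeq2 the count was 0 of 10 as well, against 1.22% of all genes.

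Over both sexes the genotype effect also called 0 of the 10 genes (edgeR, 42 of 15598 genes, 0.269%). Unadjusted p was below 0.05 for 2 of 10, Cldn23 and F11r, and for 11.2% of all genes. Cldn23 averaged 47.5 ± 5.07 CPM in the 8 WT animals and 55.3 ± 7.94 in the 8 LKO animals, with a log2 difference of 0.22 (SE 0.074, edgeR adjusted p = 0.239). F11r averaged 304 ± 16.4 and 327 ± 25.9 CPM, with a log2 difference of 0.10 (SE 0.043, edgeR adjusted p = 0.342). For both genes the WT and LKO ranges overlapped once the sexes were joined. The median log2 difference of the 10 genes was 0.05 and that of all genes tested 0.00065. The 95% intervals of the 9 genes other than Cldn8 ran from a change in LKO of -15.0% to one of 37.7%, and DESeq2 called 0 of 10 and 1.76% of all genes. The genotype effect did not pass a test of a difference between males and females for any of the 10 genes (edgeR interaction, 0 of 15598 genes called, 0.0%, and 0 of 10 at an unadjusted p below 0.05 against 5.64% of all genes), nor did any pass by DESeq2 (0 of 10, and 0 of 20510 genes). Tjp1 and Cldn2 had interaction estimates of 0.21 (SE 0.13) and 0.24 (SE 0.15), both with an edgeR adjusted p of 0.8515.

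**Figure D3:**
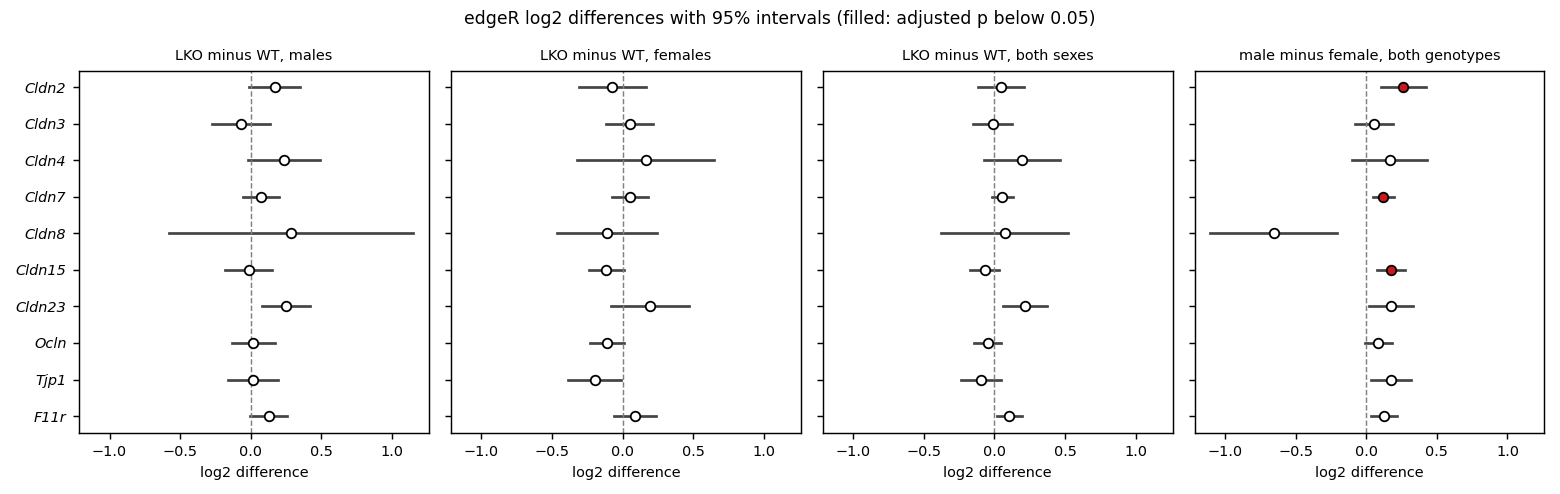
Log2 differences of the 10 genes with their 95% intervals from edgeR for LKO minus WT in males, in females and over both sexes, and for male minus female over both genotypes, with filled points for an adjusted p below 0.05. All genotype points are open, and Cldn2, Cldn7 and Cldn15 are filled in the comparison of the sexes.

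In the fits over all 16 libraries without marker covariates, more genes were called between the sexes than between the genotypes. This held over the whole table as among the 10. With the epithelial or smooth muscle marker covariate, the sex comparison called 11 and 10 of all genes and the genotype comparison 19 and 28. Over both genotypes Cldn2, Cldn7 and Cldn15 were higher in males, which is 3 of 10 genes where edgeR called 11.05% of the 15598 genes tested (5.61% higher and 5.44% lower in males). DESeq2 called 5 of 10, the same 3 with Cldn8 and F11r, and 15.8% of all genes. At an unadjusted p below 0.05 there were 7 of 10 in edgeR, and 29.3% of all genes. Of the 10 log2 differences 9 were above 0, with a median of 0.15, and that of all genes was -0.001. The WT and LKO animals enter both the genotype and the sex comparisons, which therefore share their libraries.

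Cldn2, a cation and water pore, was at 469, 478, 455 and 464 CPM in male WT, at 576, 432, 581 and 499 in male LKO, at 424.5, 379.8, 411 and 472 in female WT and at 453.5, 344, 349 and 458 in female LKO. All 8 males were above the female median, 4 of them above every female, and the log2 difference was 0.26 (SE 0.077, edgeR adjusted p = 0.0363). Cldn15, which lets sodium pass back to the lumen, was at 317, 314, 366 and 328 CPM in male WT, at 361, 304, 343 and 297 in male LKO, at 301.5, 310.4, 306.5 and 293 in female WT and at 264, 287, 295 and 273 in female LKO. All 8 males were above the female median and 6 above every female, with a log2 difference of 0.18 (SE 0.049, edgeR adjusted p = 0.0272).

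Cldn7, a claudin that binds EpCAM, was at 956, 959, 976 and 978 CPM in male WT, at 1026, 1041, 949.9 and 1028 in male LKO, at 885, 865, 891.5 and 936 in female WT and at 951, 920.3, 881 and 949 in female LKO. Here 7 of 8 males were above every female, and the difference was small against that of Cldn2, a log2 value of 0.12 (SE 0.036, edgeR adjusted p = 0.0362).

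Cldn8, a sealing claudin, ran the other way without passing the test. It was at 8.685, 8.80, 4.665 and 2.41 CPM in male WT, at 7.225, 8.85, 5.61 and 8.02 in male LKO, at 10.96, 9.69, 8.83 and 14.75 in female WT and at 11.4, 10.3, 8.035 and 11 in female LKO. No male was above the female median, the lowest values were those of male WT replicates 3 and 4, and the log2 difference was -0.65 (SE 0.21, edgeR adjusted p = 0.0574). These are the lowest levels of the set, and the 95% interval ran from a change in males of -53.45% to one of -13.3%. Cldn8 passed in 2 of the 16 fits that left out 1 library, without male WT replicate 2 (edgeR adjusted p = 0.0444) or male WT replicate 4 (0.0357). Its edgeR adjusted p reached 0.111 among these fits. With all 16 libraries it passed in the non-robust fit (0.0416) and in the newer quasi-likelihood method of edgeR (0.0458). F11r, Tjp1 and Cldn23 had log2 differences of 0.13 (SE 0.043), 0.17 (SE 0.068) and 0.18 (SE 0.074), each higher in males with adjusted p of 0.0625, 0.097 and 0.123 in the same edgeR fit. Each of them passed in 1 of the 16 fits that left out 1 library: F11r without female LKO replicate 2 (edgeR adjusted p = 0.0413), Tjp1 without male WT replicate 3 (0.0258) and Cldn23 without female LKO replicate 4 (0.033). Among these fits their edgeR adjusted p reached 0.134, 0.193 and 0.2185. Ocln, Cldn4 and Cldn3 had 0.08, 0.17 and 0.05, with adjusted p of 0.223, 0.387 and 0.603 in that fit.

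Within a genotype no gene of the set passed the test between the sexes. In WT animals the count was 0 of 10, where edgeR called 38 of 15229 genes (0.25%), and at an unadjusted p below 0.05 it was also 0, against 13.9% of all genes. DESeq2 called 0 of 10 and 1.69% of all genes. Cldn7 and Cldn15 were higher in every male than in every female and Cldn8 was lower, 3 of 10 genes without overlap against 8.38% of all genes. In LKO animals the count was 0 of 10, where edgeR called 15 of 15250 genes (0.0984%). At an unadjusted p below 0.05 there were 6 of 10, against 22.6% of all genes: Cldn2 (log2 difference 0.38), Tjp1 (0.28), Cldn15 (0.22), Ocln (0.14) and Cldn7 (0.13) with higher values and Cldn8 (-0.46) with lower values in males. Among these, Tjp1, Cldn15 and Ocln did not overlap between the sexes, 3 of 10 genes against 12.9% of all genes. The smallest edgeR adjusted p was 0.0983, for Tjp1, and DESeq2 called Cldn2 and Tjp1, 2 of 10, with 6.86% of all genes. Without female LKO replicate 4, edgeR called Tjp1 and Cldn23 (adjusted p = 0.0453 and 0.0465) and 665 genes in all.

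The 3 calls between the sexes changed with single libraries, filters and tissue markers. Cldn15 was called in 13 of the 16 fits that left out 1 library each, and not without male LKO replicate 1 (edgeR adjusted p = 0.0644), male LKO replicate 3 (0.0596) or female LKO replicate 1 (0.0573). Cldn2 was called in 7 of 16 fits. It missed the threshold without male WT replicates 1 or 4, male LKO replicates 1, 3 or 4, female WT replicates 1 or 2, or female LKO replicates 2 or 3, with edgeR adjusted p up to 0.076. Cldn7 was called in 6 of 16 fits. Its adjusted p reached 0.0837, and it missed the threshold without male WT replicates 1 or 4, male LKO replicates 1, 2 or 4, female WT replicates 1 or 2, or female LKO replicates 1, 2 or 3. Cldn7 also missed the threshold with no filter on low counts (edgeR adjusted p = 0.0643) and with at least 10 counts in every library (0.0505). With upper-quartile scaling 0 of the 3 passed, and the calls over all genes split into 424 higher in males of 1621, against 875 of 1723 with the main scaling.

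Markers of several cell types differed between the sexes too. The 10 epithelial markers summed to between 17421 and 19240 CPM in males and between 14595 and 17656 CPM in females, with 4 called higher in males, 0 lower and all 10 above 0 in every library. The 8 smooth muscle markers summed to between 2925 and 3819 CPM in males and between 3736 and 5699 CPM in females, with 7 of 8 called lower in males and none at 0. The 8 Paneth cell markers summed to between 12687 and 22667 CPM in males and between 16701 and 23474 CPM in females, with 4 of 8 called lower in males, 0 higher and none at 0. Of the other lists, 1 marker each of T cells, endothelium and M cells was called lower in males, and 1 each of crypts and large intestine was called higher. In bulk tissue, fewer cells of a type and less RNA per cell cannot be told apart. With the epithelial marker level as a covariate the log2 differences were 0.20 for Cldn2, 0.06 for Cldn7 and 0.19 for Cldn15 (SE 0.127, 0.054 and 0.080), with edgeR adjusted p of 0.61, 0.736 and 0.449. With the smooth muscle level as a covariate they were 0.03, 0.11 and 0.18 (SE 0.082, 0.051 and 0.071), with adjusted p of 0.952, 0.552 and 0.47 in that edgeR fit. Over all genes these fits called 11 and 10 genes, against 1723 without a marker. The marker sums and sex are partly mixed, which widens the SE of the sex difference. A call lost in these fits therefore does not tell the markers and sex apart. Without the 3 libraries with high B cell markers, Cldn15 alone passed (0.21, edgeR adjusted p = 0.0435), with 0.16 for Cldn2 and 0.10 for Cldn7, and 765 genes were called in all. Without the 5 libraries with high Car1, Cldn2 alone passed (0.39, edgeR adjusted p = 0.03), with 0.18 for Cldn15 and 0.12 for Cldn7, and 666 genes were called in all. With the number in the sample titles as a covariate, 0 of the 3 passed either (edgeR adjusted p between 0.0737 and 0.145), and 326 of all genes did. The log2 differences in that fit were 0.27 for Cldn2, 0.11 for Cldn7 and 0.20 for Cldn15, with SE of 0.094, 0.043 and 0.058. Without the covariate they were 0.26, 0.12 and 0.18, with SE of 0.077, 0.036 and 0.049. The marker covariates and the removal of libraries were chosen after seeing the data. What part the markers have in the sex difference was not tested.

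The rest of the junction was measured with the same libraries. Of 18 other claudin genes in the table, 14 had a mean below 1 CPM and 5 were tested. The most abundant were Cldn12 (54.2 CPM) and Cldnd1 (48.75 CPM), with Cldn5, the claudin of blood vessels, at 5.35 CPM and Cldn1 at 1.57 CPM. No gene of the 5 further junction lists was called in the genotype comparison of males, of females or of both sexes together. Over both sexes the smallest adjusted p of edgeR was 0.837 among the 5 other claudins, 0.536 among the 12 other membrane proteins, 0.271 among the 25 plaque and polarity proteins, 0.333 among the 5 claudin partners and proteases, and 0.375 among the 14 adherens junction and desmosome genes. The abundant members of these lists differed little between genotypes. The scaffold Tjp3 had a log2 difference of 0.04, Cgn (cingulin) -0.03, Cdh1 (E-cadherin) 0.06 and Ctnnb1 (beta-catenin) 0.06. The tricellular junction receptor Lsr had 0.07, Epcam 0.07 and St14 (matriptase, a protease that cleaves EpCAM) 0.11.

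Between the sexes, genes of these lists were called in the fit over both genotypes, which called 11.05% of all genes. There 3 of 12 other membrane proteins were called, all higher in males: Igsf5 (JAM-4, 0.24), Marveld3 (an occludin relative, 0.20) and Crb3 (a polarity protein, 0.16). Of 25 plaque and polarity genes, 4 were higher, among them Cgn (0.17, SE 0.051) and Micall2 (0.20), and 1 was lower, Mylk (-0.30, SE 0.063). Mylk encodes myosin light chain kinase, which smooth muscle also expresses. It averaged 821 ± 85.9 CPM in males and 1007 ± 71.2 CPM in females (SD, n = 8). The partners Epcam (0.14) and St14 (0.25) were higher in males, 2 of the 5 tested, and Spint1 and Spint2, the inhibitors of matriptase, had 0.10 and 0.05 and did not pass. Adherens junction and desmosome genes were called 6 of 14 times, all higher in males, led by the desmosomal Dsc2 (0.33), Dsg2 (0.26), Pkp2 (0.22) and the catenin Ctnnd1 (0.20). Cdh1, Ctnna1 and Ctnnb1, with 0.13, 0.12 and 0.12, had edgeR adjusted p of 0.0532, 0.0659 and 0.0527. Cldn1 was lower in males (-0.70, SE 0.2, edgeR adjusted p = 0.0303), at 1.20 ± 0.37 CPM against 1.93 ± 0.475 CPM (SD, n = 8). The median log2 difference was -0.30 in the other claudins, 0.06 in the other membrane proteins, 0.09 in the plaque list and 0.14 in both the partners and the adherens list. Epcam and Cdh1 are also epithelial markers, and Cldn5 and Esam are also endothelial markers. Within WT or within LKO animals alone, no gene of these 5 lists was called between the sexes.

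**Figure D4:**
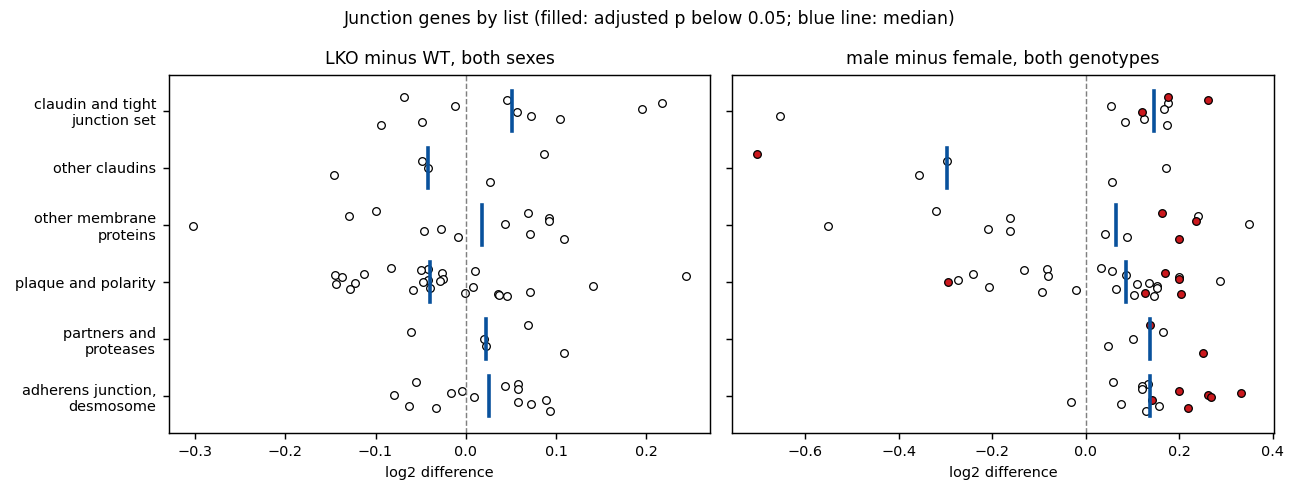
Log2 differences of the tested genes of each junction list for LKO minus WT over both sexes (left) and male minus female over both genotypes (right), with a blue line at each list's median and filled points for an edgeR adjusted p below 0.05. The left panel has no filled point, and the right panel has filled points in every list, of which those of Cldn1 and Mylk lie below 0.

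The 10 genes varied together across the 16 libraries to a limited extent. Of 45 pairs, 35 had a positive Pearson correlation of log2 CPM and the median r was 0.34. By r, 1 pair passed the adjustment over the 45 pairs, Cldn7 with F11r (r = 0.755, rho = 0.668, permutation adjusted p = 0.0365 for r and 0.0759 for rho, n = 16). Without the 2 libraries farthest from the median r was 0.721, within males 0.552 and within females 0.604. By rho, 2 other pairs passed. Ocln and Tjp1 had a rho of 0.841 (permutation adjusted p = 0.0054, r = 0.687, adjusted p = 0.0722), with r at 0.294 in males, 0.8995 in females and 0.708 without the 2 farthest libraries. Cldn8 and Cldn15 had a rho of -0.80 (permutation adjusted p = 0.0081, r = -0.646, adjusted p = 0.0897), with r at -0.416 in males, -0.337 in females and -0.705 without the 2 farthest libraries. After centring on group means the r of Cldn7 with F11r was 0.3535, so part of it lay between the groups.

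Across the libraries the genes also followed tissue markers. Of 100 relations of the 10 genes with the 10 marker lists, 7 passed the adjustment by r. Cldn7 followed the epithelial sum (r = 0.872, rho = 0.824, permutation adjusted p = 0.002 for r and 0.013 for rho, n = 16), with r at 0.823 without the 2 farthest libraries, 0.558 in males and 0.83 in females. Cldn2 ran against the smooth muscle sum (r = -0.85, rho = -0.785, permutation adjusted p = 0.002 for r and 0.0245 for rho, n = 16), with r at -0.796 without the 2 farthest libraries, -0.739 in males and -0.746 in females. Both relations thus kept their sign within each sex. Ocln ran against the endothelial sum (r = -0.801, rho = -0.744, permutation adjusted p = 0.00467 for r and 0.033 for rho, n = 16), with r at -0.904 in males, -0.6005 in females and -0.666 without the 2 farthest libraries. F11r followed the epithelial sum (r = 0.755, rho = 0.762, permutation adjusted p = 0.01625 for r and 0.0287 for rho, n = 16), with r at 0.708 in males, 0.5554 in females and 0.783 without those libraries. The other 3 passed by r and not by rho: Cldn2 with crypt markers (r = 0.706) and with T cell markers (r = -0.688), and Cldn23 with epithelial markers (r = 0.687), with permutation adjusted p of 0.0476, 0.0486 and 0.0486 for r. Without the 2 farthest libraries their r was 0.490, -0.5635 and 0.519. By rho alone, Cldn7 with smooth muscle markers passed (rho = -0.721, permutation adjusted p = 0.0416, r = -0.616, adjusted p = 0.0875). Its r was 0.3725 in males and -0.427 in females, so the sign differed between the sexes. Libraries of one sex share both their sex and their tissue makeup, and these cannot be told apart in the pooled values.

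**Figure D5:**
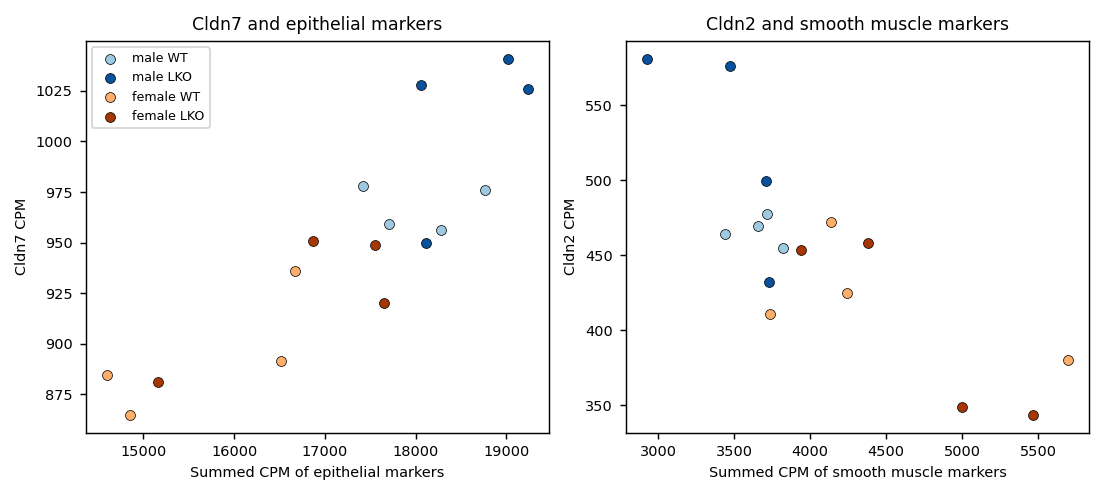
Cldn7 CPM against the summed CPM of 10 epithelial markers (left) and Cldn2 CPM against the summed CPM of 8 smooth muscle markers (right), 1 point per library, coloured by group, with axes that do not start at 0. Cldn7 is highest where the epithelial sum is highest (r = 0.872), and Cldn2 is lowest in the libraries with the largest muscle sum (r = -0.85).

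The genes whose levels ran most like each of the 10 over the 16 libraries were found among 14423 genes with a mean of at least 1 CPM, by Pearson r of log2 CPM, and are given with no test. For Cldn7 they were Ist1 (0.905) and Epcam (0.9045), the latter the gene of its binding partner. Tjp1 ran with Pdlim5 (0.963) and Sec24a (0.952), the closest likeness in the set. F11r ran with Mall (0.916) and Abhd11 (0.854), Ocln with Mgat4a (0.903) and Zyg11b (0.893), and Cldn15 with Eml4 (0.884) and Shroom3 (0.880). Cldn2 ran with BC030870 (0.895) and Ywhae (0.886), and Cldn4 with Myo1e (0.885) and Nckap5 (0.840). Cldn8 ran with Gm21814 (0.896) and Uggt2 (0.8735), both also at a few CPM. Cldn3 ran with Dnajb2 (0.853) and Rsph3b (0.843), and Cldn23 with Noct (0.824) and Actr3 (0.802). None of the 20 was another of the 10 genes. After centring on group means these r lay between 0.659 and 0.936.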

How the data were processed

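The authors made stranded poly(A) libraries, sequenced them as single-end reads and aligned them to mm10 with STAR 2.5.2, keeping uniquely mapped reads. HOMER 4.10 counted reads over exons with 1 transcript per gene, so the deposited values are raw counts. The strand option of the counting is not given in the sources used here. Groups and replicate numbers come from the sample titles.

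Counts were tested in R 4.3.3 with edgeR 4.0.16 (quasi-likelihood F-test, robust, TMM scaling, filterByExpr by group, Benjamini-Hochberg over all genes, threshold 0.05). Within-sex and within-genotype comparisons used the 8 libraries compared, the others all 16. Tests were checked on simulated counts. Correlations used log2 CPM (prior count 2) and 100000 resamples. Alternatives were DESeq2 1.42.0, RLE and upper-quartile scaling, other filters and fits, a replicate block, the title number, 5 sets of nearby title numbers, and each library left out. Covariates for epithelial and smooth muscle markers and the removal of libraries with high B cell markers or Car1 were chosen after seeing the data.

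The genes and lists were chosen with earlier results of these data known. Named beyond the 10 genes were, per junction list, the 4 most abundant genes and, among genes averaging 1 CPM or more, up to 4 called ones of smallest p, then the 2 genes most like each member, and Xist, Ddx3y and Bcl6. A gene that this rule names is not reported here. Ddx3y was at 0 in all 8 females and between 23.75 and 33.9 CPM in males.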

Additional observations from a re-analysis of the deposited data

How the results depend on the processing

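In the 3 genotype comparisons and the interaction, 0 of the 10 genes passed under every alternative and with every library left out. Over the 70 log2 differences of these genes, 1659 of 1790 alternative values kept their sign and their side of the threshold, 75 changed sign, 43 lost a call and 13 gained one. The cause was not tested for any of these. Between the sexes over both genotypes, the 3 calls became 5 with DESeq2, 0 with upper-quartile scaling, 0 with the title number as a covariate, 0 with the title set as a factor, 0 with either the epithelial or the smooth muscle marker covariate, and 1 without the libraries high in B cell markers or in Car1, against a range of 0 to 4 with single libraries left out. Over all genes this comparison called 10 with the smooth muscle covariate and 2436 with DESeq2. With the title set as a factor its log2 differences were 0.30 for Cldn2, 0.12 for Cldn7 and 0.20 for Cldn15 (SE 0.12, 0.054 and 0.071), and 90 of all genes were called. The title sets are 5 groups of nearby title numbers, made for this fit and not named by the labels. Some sets hold animals of 1 sex only and give no contrast of the sexes within the set. In LKO animals the count between the sexes went from 0 to 2 with DESeq2 and ranged from 0 to 2 with single libraries left out.

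Some log2 differences changed sign, and these were not only the small ones. Cldn8 was 0.29 for LKO against WT in males and ran from -0.33 to 0.51 over all alternatives. Its interaction estimate of 0.39 ran from -0.46 to 0.655. Cldn4 between the sexes was 0.12 in WT and 0.20 in LKO, and reached -0.19 and -0.18. For LKO against WT in males, Cldn3 was 0.14 with the title number and 0.049 without the high-Car1 libraries, Cldn15 was 0.14 and 0.084 in those fits, Ocln was -0.013 with the epithelial covariate and -0.028 without high Car1, and Tjp1 was -0.0015 with the smooth muscle covariate and -0.019 without high Car1. With single libraries left out these ranged from -0.13 to 0.011 for Cldn3, -0.066 to 0.036 for Cldn15, -0.037 to 0.054 for Ocln and -0.064 to 0.085 for Tjp1. Between the sexes, Cldn2 in LKO was -0.038 with the smooth muscle covariate, against 0.38 without it. Between the sexes over both genotypes, Cldn3 was -0.062 and Cldn4 -0.18 with the epithelial covariate, and Cldn3 was -0.0090 without high Car1.

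The sample numbers do not pair the animals: of 24 pairs with the same number, 6 had correlated deviations over 0.1 (range -0.104 to 0.256). With the replicate block, 0 of the 10 genes passed in the genotype comparisons, the interaction and either genotype alone, and 3 passed between the sexes over both; over all genes it called 16 in males, 15 in females and 16 over both sexes, against 8, 6 and 42. In males every WT title number is below every LKO one, so that number and genotype cannot be told apart. The lowest title numbers all belong to females and the highest all to male LKO animals. Title number and sex are thus partly mixed as well. The pair that passed by r gave 0 pairs after centring on group means and 0 without the 2 farthest libraries. Cldn8, at 47 to 704 counts, had the widest intervals in most comparisons. In the female genotype comparison and between the sexes in LKO animals, the interval of Cldn4 was wider.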
